A study of Rattus norvegicus with 8 samples.

Results

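The 9 genes described here encode CC chemokines: Ccl2, Ccl3, Ccl4, Ccl5, Ccl6, Ccl7, Ccl9, Ccl22 and Ccl24. They were taken by name from the non-control spots of a rat expression array and are 9 of the 36181 gene names on it, with 12 probes and 42 spots per array. RNA came from NR8383, a macrophage line derived from the lung lavage of a normal rat, and was hybridised in one colour (Cy3). The groups were cells at passage 200 (P200, 4 arrays) and cells at passage 20 (P20, 4 arrays). Both were taken 48 h after seeding, from the same line and with no agent added beyond the culture medium, per the labels. Its cultures hold both adherent and floating cells, and the labels call the 4 samples of a group biological replicates without saying how the cultures were separated. The p-values therefore measure the spread between these samples.

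CC chemokines are small secreted proteins with a pair of adjacent cysteines near the start of the mature protein. They bind G protein-coupled receptors on leukocytes and set the direction in which these cells move. Alveolar macrophages are a known source of them in the lung, where they call in monocytes, neutrophils and lymphocytes after microbes or particles are inhaled. Many of their genes lie side by side, and NF-kappaB is a well-known activator of several.

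All values below are log2 of the processed signal of a probe less the 75th percentile of its array, so 0 is the 75th percentile and a difference of 1 is a doubling. A change is P200 over P20, with the standard error (SE) of limma's moderated fit and n = 4 arrays per group. Adjusted p-values are limma's, by Benjamini-Hochberg over all 15643 genes in the fit, and a gene passed at an adjusted p under 0.05. A gene entered the fit if all 4 arrays of a group showed a probe well above background, and its brightest such probe stood for it. Because signal also depends on the probe, levels are set only against other arrays and never against another gene. In a bulk measurement, fewer cells making a transcript and less of it per cell cannot be told apart.

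The scanner software marked 51.0% to 54.5% of spots as well above background, by array, and none as saturated. Over all genes, 874 were lower and 915 higher at P200, a split that became 419 lower and 736 higher when arrays were centred on their median. Of 8 macrophage markers, 7 were well above background on all 8 arrays, and Adgre1 was on none. Of 7 alveolar macrophage markers on the array, 5 were, and Car4 was on none. Of the 7 macrophage and 5 alveolar macrophage markers in the fit, Itgam, Cd14, Siglec1 and Siglec5 were lower at P200 and none was higher. Over all genes tested 5.59% were lower and 5.85% higher. The macrophage markers summed to 149 to 161 times the 75th percentile at P200, against 150 to 191 times at P20, and the alveolar markers to 17.4 to 28.1 times at P200, against 27.1 to 28.2 times at P20. Of 30 markers of epithelium, fibroblasts, endothelium, lymphocytes, granulocytes and dendritic cells, 18 were above background on no array and 6 on all 8. The 6 were Col1a2, Dcn, Pecam1, Cdh5, Cd3d and Clec9a. The fibroblast list summed to 1.36 to 1.63 times the 75th percentile at P200, against 1.23 to 1.44 times at P20. The endothelium list summed to 0.81 to 0.91 times at P200, against 0.77 to 0.89 times at P20. Of the 6, only Clec9a of the dendritic cell list was called, and it was lower at P200. The 4 genes of that list summed to 0.0754 to 0.125 times the 75th percentile at P200, against 0.100 to 0.114 times at P20. The part of these markers in the chemokine results was not tested.

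Most of the CC chemokines in the fit were lower at P200. The members were chosen with earlier results of these data known, so the shares of all genes beside them are a description. Of the 9 members, 8 entered the fit, all 8 well above background on all 8 arrays. Of these, 7 fell, none rose, and Ccl22 did not pass with its brightest probe. Over all genes tested, 5.59% were called lower and 5.85% higher. In 7 of the 8 the arrays of the groups did not overlap, with P200 below P20 each time, against 9.76% of all genes. The median change of the 8 members was -0.70, beside 0.0036 for all genes. The changes ran from -3.93 for Ccl7 to -0.34 for Ccl6. With arrays centred on their median 5 members were called lower, beside 419 of 15643 genes. With no background filter 5 members were called lower, beside 414 of 36121 genes. No fold is given for Ccl24, which was above background on no array.

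**Figure D1:**
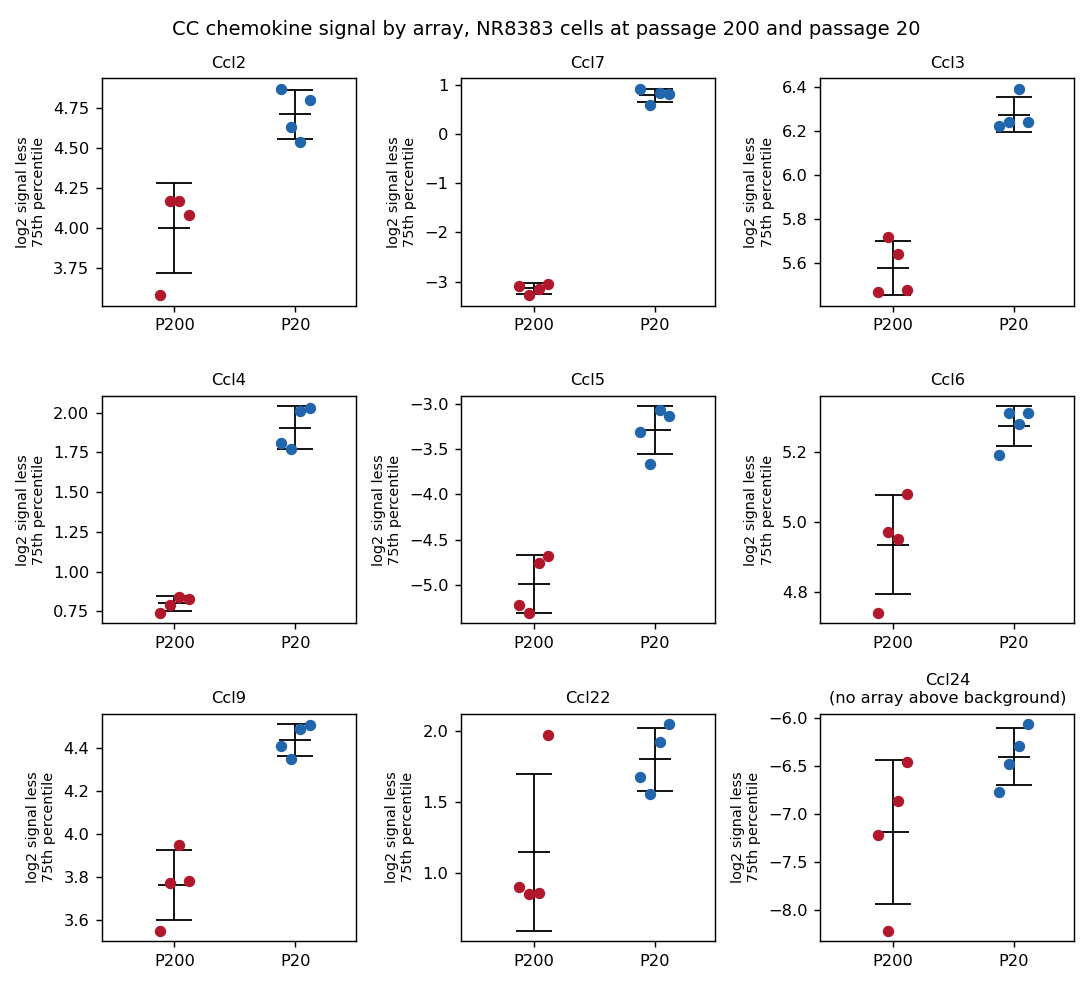
Signal of the 9 CC chemokines by array, as log2 processed signal less the array's 75th percentile on the vertical axis, with P200 left of P20 in each panel; points are arrays, the long bar is the mean and the capped bars are 1 SD (n = 4), and each panel has its own scale. The P200 points lie below all P20 points for 7 genes, overlap them for Ccl22 through the array at 1.97, and overlap them for Ccl24, which was above background on no array.

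Ccl7 and Ccl2 are monocyte chemoattractants. Both act through Ccr2, the receptor that brings monocytes out of the bone marrow and into tissue, and Ccl7 also binds Ccr1 and Ccr3. Ccl7 stood at -3.09, -3.28, -3.15 and -3.04 on the P200 arrays, against 0.91, 0.60, 0.83 and 0.82 on the P20 arrays. All 8 arrays sat close to their group's level, and the gap between the groups was far wider than the spread inside either. Ccl7 fell by 3.93 (SE 0.08, adjusted p = 2.5e-08), which is 15.2-fold lower at P200 and ranked it 30th among the falls of all called genes. It is among 116 genes that fell at least 4-fold.

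Ccl2 was measured with 10 spots per array and stood at 3.58, 4.17, 4.17 and 4.08 at P200, against 4.87, 4.63, 4.54 and 4.80 at P20. No P200 array reached the lowest P20 array, and replicate 1 of P200 lay well under the other P200 arrays. Its 8 usable spots on that array agreed closely, with an SD of 0.026. Ccl2 fell by 0.71 (SE 0.14, adjusted p = 0.0139), or 1.63-fold lower at P200. The call is lost when arrays are centred on their median (-0.65, limma adjusted p = 0.0506) and when probes near background are all kept in the fit (limma adjusted p = 0.0898). The probes of these neighbouring genes lie 10.8 kb apart on rat chromosome 10, that of Ccl2 at chr10:70257919-70257978 and that of Ccl7 at chr10:70268674-70268733, both on the plus strand of build rn4, per the files.

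The sequence before the annotated start of Ccl7 is shown because Ccl7 had the widest difference. It covers 250 bases before to 50 after the start, on the plus strand at chr10:67513845-67514144 of GRCr8, from RefSeq, and capitals mark TGANTCA (an AP-1 motif), a match to the NF-kappaB consensus and TATAAA, in that order.
Ccl7: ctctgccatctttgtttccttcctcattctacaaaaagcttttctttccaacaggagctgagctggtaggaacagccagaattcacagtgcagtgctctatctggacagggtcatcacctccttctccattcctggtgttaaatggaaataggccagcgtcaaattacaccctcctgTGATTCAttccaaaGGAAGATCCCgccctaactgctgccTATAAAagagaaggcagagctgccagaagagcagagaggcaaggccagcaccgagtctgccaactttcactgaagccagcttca
The TATAAA begins 34 bases before the start, the NF-kappaB match 59 and the AP-1 match 73. The NF-kappaB match is on the strand opposite to the one printed. Both strands were searched in 33469 rat windows of 300 bases. TATAAA was in 14.2% of them, the NF-kappaB consensus in 7.51% and TGANTCA in 7.33%. A match describes letters and not binding.

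Ccl3, Ccl4 and Ccl5 are inflammatory chemokines, and Ccl3 and Ccl5 bind Ccr1. They draw monocytes, macrophages and activated T cells. Ccl5 stood at -5.22, -5.31, -4.76 and -4.68 on the P200 arrays, against -3.31, -3.66, -3.07 and -3.13 on the P20 arrays. Every P20 array was above every P200 array, with a visible spread inside both groups. Ccl5 fell by 1.70 (SE 0.18, limma adjusted p = 0.000382), or 3.25-fold lower at P200. Its signal was dim, and the size of its change depended on how background was treated: the change was -0.85 after normexp correction and -1.06 from the spot medians of the series matrix, past the test in both.

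Ccl4 stood at 0.74, 0.79, 0.84 and 0.83 at P200, against 1.81, 1.77, 2.01 and 2.03 at P20. The P200 arrays were almost level with each other, and none approached a P20 array. Ccl4 fell by 1.103 (SE 0.08, limma adjusted p = 2.68e-05), or 2.15-fold lower at P200. Ccl3 stood at 5.47, 5.72, 5.64 and 5.48 at P200, against 6.22, 6.24, 6.39 and 6.24 at P20. The groups did not overlap, and replicate 3 of P20 stood above 3 near-equal P20 arrays. Ccl3 fell by 0.70 (SE 0.08, limma adjusted p = 0.000571), or 1.62-fold lower at P200.

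Ccl9 and Ccl6 are chemokines of rodents. In mice both are made by macrophages and other myeloid cells and act on Ccr1. Ccl9 stood at 3.55, 3.77, 3.95 and 3.78 at P200, against 4.41, 4.35, 4.49 and 4.51 at P20. All P20 arrays were above all P200 arrays. Ccl9 fell by 0.68 (SE 0.09, limma adjusted p = 0.00151), or 1.60-fold lower at P200.

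Ccl6 had 2 probes with 10 spots each. The brighter one stood at 4.74, 4.97, 4.95 and 5.08 at P200, against 5.19, 5.31, 5.28 and 5.31 at P20. The groups came close to each other without touching, the highest P200 array lying just under the lowest P20 array. This probe fell by 0.34 (SE 0.08, limma adjusted p = 0.0279), the narrowest change of the members. The second probe, mapped to chr10:71659657-71659716 beside chr10:71660623-71660682 for the first on the minus strand of rn4, stood at 3.95, 4.04, 4.03 and 3.72 at P200, against 4.33, 4.47, 4.36 and 4.29 at P20. Its arrays did not overlap either, and it fell by 0.43 (SE 0.09, limma adjusted p = 0.0148 over all probes). The changes of the 2 probes differed by -0.09 (SE 0.13, exact permutation test, two-sided p = 0.686, n = 4 arrays per group). The Ccl6 call was lost in 8 of 19 other settings, among them centring on the median (limma adjusted p = 0.213) and leaving out any of 5 single arrays.

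The windows around the annotated starts of Ccl9 and Ccl6, cut as for Ccl7, are shown for their likeness. Both come from RefSeq on GRCr8, on the minus strand, at chr10:68868828-68869127 for Ccl9 and chr10:68883317-68883616 for Ccl6. Capitals mark TATAAA on either strand and matches to the NF-kappaB consensus.
Ccl9: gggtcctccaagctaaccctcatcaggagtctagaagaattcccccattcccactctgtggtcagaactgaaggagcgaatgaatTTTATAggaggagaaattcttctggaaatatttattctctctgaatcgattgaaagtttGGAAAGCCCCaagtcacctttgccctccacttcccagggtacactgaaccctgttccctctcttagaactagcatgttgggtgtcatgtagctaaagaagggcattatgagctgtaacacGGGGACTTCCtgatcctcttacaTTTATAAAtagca
Ccl6: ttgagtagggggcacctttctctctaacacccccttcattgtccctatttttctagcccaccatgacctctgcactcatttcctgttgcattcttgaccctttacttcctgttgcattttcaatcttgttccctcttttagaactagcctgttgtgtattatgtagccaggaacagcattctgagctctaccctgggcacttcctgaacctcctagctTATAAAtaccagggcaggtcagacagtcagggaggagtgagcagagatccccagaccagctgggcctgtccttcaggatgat
In the best local alignment 102 of 137 aligned bases were identical (74.5%), while the best blocks between the other pairs of member windows were 10 to 36 bases long. The aligned stretch holds TATAAA near its end in both genes. In the Ccl9 window that box lies after the annotated start, and in the Ccl6 window 32 bases before it. The Ccl9 window matched the NF-kappaB consensus at GGAAAGCCCC, on the strand opposite to the one printed, beginning 106 bases before the start. It also matched at GGGGACTTCC, which lies after the annotated start. The aligned letters in Ccl6 are GGGCACTTCC, which is G4C with the Ccl9 base first, counted from 1 at the first of the 10 letters, and no consensus match. Windows of Ccl22 and Ccl24 were also searched: that of Ccl24 held TATAAA, and none of the 3 motifs was in that of Ccl22. For Ccl2, Ccl3, Ccl4 and Ccl5 no window was searched.

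**Figure D2:**
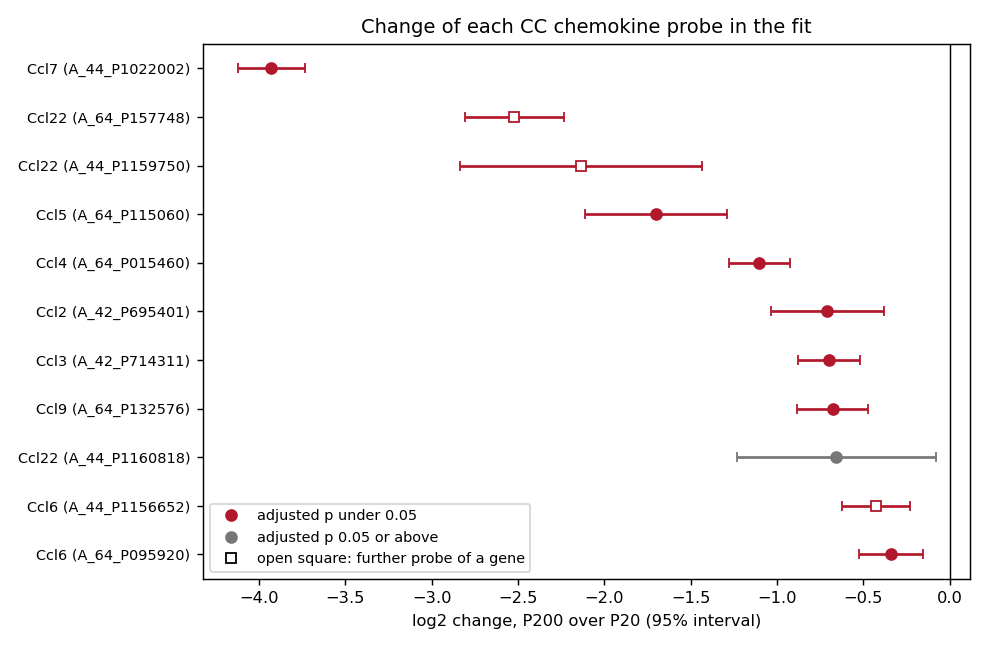
Change of each of the 11 CC chemokine probes in the fit, as log2 P200 over P20 on the horizontal axis with its unadjusted 95% interval; filled circles are the probes that stand for their gene and open squares further probes. All 11 lie below 0, from -3.93 for Ccl7 to -0.34 for a Ccl6 probe, and the grey Ccl22 probe had an adjusted p of 0.150.

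Ccl22 is made by macrophages and dendritic cells and attracts Ccr4-bearing T cells, regulatory ones among them. Its 3 probes differed. The brightest stood at 0.90, 0.85, 0.86 and 1.97 at P200, against 1.68, 1.56, 1.92 and 2.05 at P20. Replicates 1 to 3 of P200 were below all P20 arrays, and replicate 4 was inside the P20 range. With that array the change was -0.66 (SE 0.25, limma adjusted p = 0.150), and without it -0.93 (limma adjusted p = 0.00244).

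The other 2 Ccl22 probes have the same 60 bases and map to chr19:10697623-10697682, on the minus strand of rn4. The one named A_64_P157748 stood at -4.02, -4.39, -4.19 and -4.30 at P200, against -1.64, -2.01, -1.46 and -1.71 at P20. All P200 arrays, replicate 4 included, lay far below the P20 arrays. It fell by 2.52 (SE 0.13, limma adjusted p = 3.19e-06 over all probes), or 5.73-fold lower at P200. The one named A_44_P1159750 stood at -4.12, -4.42, -4.41 and -3.91 at P200, against -1.63, -1.96, -1.66 and -3.09 at P20. Replicate 4 of P20 lay low on it, by a distance its twin did not show, but still above every P200 array. It fell by 2.13 (SE 0.31, limma adjusted p = 0.00247 over all probes). Both probes were dim at P200. Their processed signals there were 49.7 to 115 for A_64_P157748 and 62.9 to 107 for A_44_P1159750, on the linear scale. How far the size of their falls depends on the background treatment was not tested.

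The last 30 bases of the 60-base designs show how the probes differ, with the polyadenylation signal AATAAA in capitals.
A_64_P157748 and A_44_P1159750: acaacagtgccccagggtggggaAATAAAt
A_44_P1160818, the brightest: gaaAATAAAtgctcgtcaatagtgaaaaaa
The brightest probe carries bases past the signal and ends in a run of 6 A, and the files give it no map position. Its letters up to the end of the signal read gaaAATAAA, against ggaAATAAA in the identical probes. Whether all probes read the same transcript end was not tested. The change of A_64_P157748 less that of the brightest probe was -1.86 (SE 0.32). Their within-array difference ran from -6.27 to -4.92 at P200 and from -3.76 to -3.31 at P20, without overlap. The exact permutation test gave p = 0.0286, the smallest that 4 against 4 arrays allow, and 0.0857 after adjustment over 3 probe pairs chosen after their values were seen. The mean of the 3 probes fell by 1.77 (limma adjusted p = 9.93e-05). So whether Ccl22 passed the test depended on the probe, and the size of its change is given as a range from -0.66 to -2.52.

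**Figure D3:**
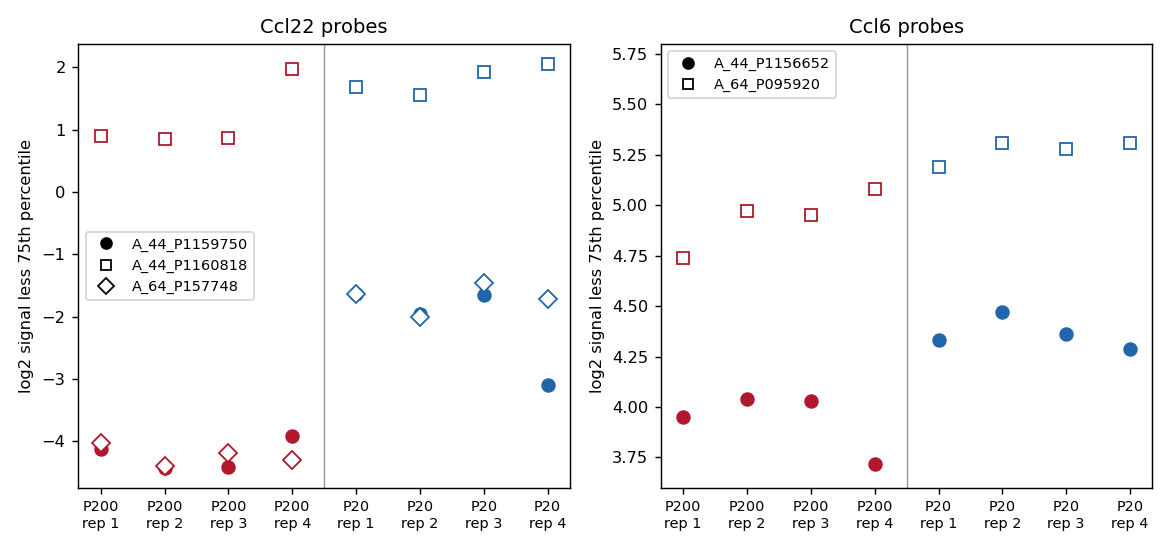
Signal of the 3 Ccl22 probes and the 2 Ccl6 probes on each array, as log2 processed signal less the array's 75th percentile, with P200 arrays on the left and P20 arrays on the right of each panel. The identical Ccl22 probes lie near -4 on all P200 arrays, while the brightest probe reached 1.97 on P200 replicate 4.

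Ccl24 attracts eosinophils through Ccr3. Its probe stood at -7.22, -8.22, -6.87 and -6.46 at P200, against -6.77, -6.48, -6.29 and -6.06 at P20, and was well above background on none of the 8 arrays. The groups overlapped, and signals this close to background have no usable order.

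Set side by side by size, the changes of neighbours in the order were compared within arrays by exact permutation tests, two-sided, over 7 pairs. The change of Ccl7 less that of Ccl5 was -2.23 (SE 0.16), and that of Ccl5 less that of Ccl4 was -0.60 (SE 0.16). In both pairs the within-array differences of the groups did not overlap, with p = 0.0286, the smallest possible in this exact test, and 0.1 after adjustment over the 7 pairs. The step between Ccl4 and Ccl2 was -0.40 (SE 0.17, exact p = 0.0857, adjusted 0.2). The steps Ccl2 to Ccl3, Ccl3 to Ccl9 and Ccl9 to Ccl22 were -0.0095, -0.020 and -0.021, with an adjusted p of 1 in each exact test, and Ccl22 to Ccl6 was -0.32 (exact p = 0.286). No step passed after adjustment. With 0.0286 the smallest p possible, no step could pass over 7 pairs, however wide, unless several other pairs also reached it. The tests therefore cannot settle the order, which is given as a description.

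All 8 arrays lie on 1 slide read in 1 scan. P200 replicates 2, 3 and 4 share a slide row with P20 replicate 1, and P200 replicate 1 shares the other row with P20 replicates 2, 3 and 4. Within the first row the Ccl7 difference, P200 less P20, was -4.06, and within the second -3.84. For the other 7 genes the differences were -0.20 to -1.60 within the first row and -0.56 to -1.94 within the second, negative in each. The narrowest were those of Ccl6, -0.20 and -0.56, and with the row as a term in limma its adjusted p was 0.0530. Slide column 1 held only P20 replicates 1 and 2, and column 2 only P200 replicates 1 and 2. Columns 3 and 4 held both groups. In columns 1 and 2 passage and slide column cannot be told apart, and a part of the column was not tested.

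The 7 members that fell all lie on chromosome 10 of rn4, in 2 clusters. Ccl2 and Ccl7 span 10.8 kb, and Ccl5, Ccl9, Ccl6, Ccl3 and Ccl4 span 154 kb, beyond a gap of 1337 kb. Of the 22 other genes tested across these 1502 kb, 4 were lower, none was higher and 18 did not pass, with a median change of -0.15 and a range from -1.004 to 0.52. Over all genes tested 5.59% were lower and 5.85% higher. One of the 4 was Ccl12, which lies 64.5 kb from Ccl2. Slfn5 (-0.86, SE 0.22, limma adjusted p = 0.0382) and Slfn2 (-0.31, SE 0.07, limma adjusted p = 0.0161), members of the Schlafen family, lie in the gap, as does an unnamed transcript at -1.004 (SE 0.14, limma adjusted p = 0.00207). Ccl22 lies on chromosome 19 and Ccl24 on chromosome 12.

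**Figure D4:**
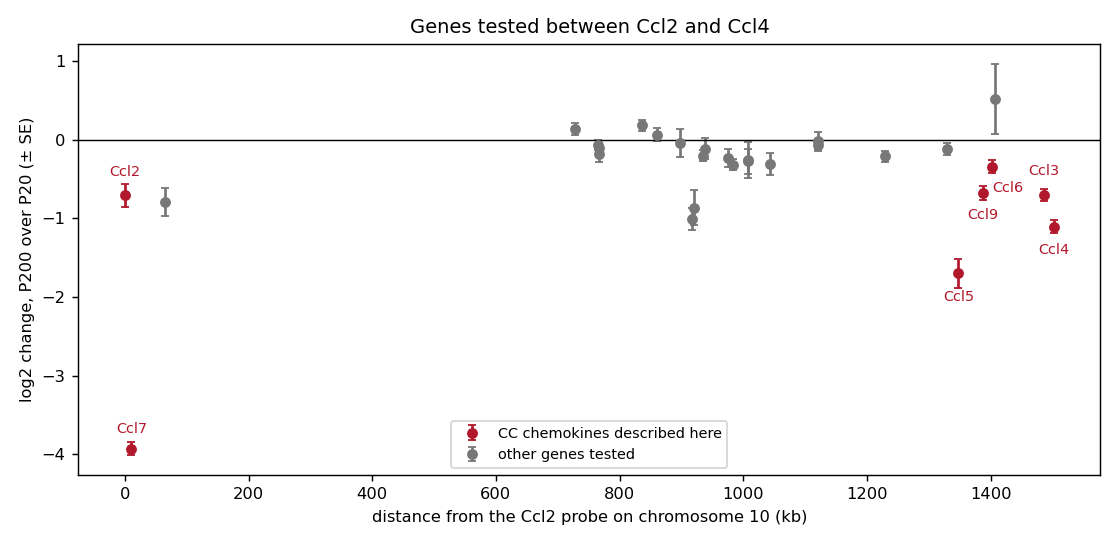
Change of the 29 genes tested between Ccl2 and Ccl4, as log2 P200 over P20 (± SE) on the vertical axis, by distance from the Ccl2 probe in kb; red points are the 7 CC chemokines described here. The other 22 genes lie between -1.004 and 0.52, and Ccl7 at -3.93 lies far below its neighbours Ccl2 and Ccl12.

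Of 11 further CC chemokines only 3 were in the fit. Of these, 2 were called lower, Ccl12 and Ccl27, while 5.59% of all genes tested were lower. Ccl12, in mice a ligand of Ccr2, stood at -1.91, -1.93, -1.51 and -2.45 at P200, against -1.04, -1.19, -1.08 and -1.34 at P20. The groups did not overlap, and it fell by 0.79 (SE 0.18, limma adjusted p = 0.0227). The call was lost with arrays centred on their median (limma adjusted p = 0.106), with no background filter (0.125) and with the slide row as a term (0.0679). Ccl27, known from skin, was above background on all 4 P20 arrays and on no P200 array. It entered the fit only through the group where it was brighter, so its call (limma adjusted p = 0.0191) is not taken as support. In the main processing the bound on its change was 1.25-fold lower at P200. Its measured means were -6.78 at P200 and -5.66 at P20, both dim. The bound takes, on each P200 array, the higher of the probe's own signal and the lowest signal well above background. Another Ccl27 probe, used when no background filter is set, gave a change of 0.057. After normexp correction the change was -0.15 (limma adjusted p = 0.691), so the bound holds for the main processing only. Ccl17, like Ccl22 a ligand of Ccr4, gave -0.70 (SE 0.40) and did not pass (limma adjusted p = 0.357).

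Among the receptors, Ccr1, which binds Ccl3, Ccl5 and Ccl7, stood at -1.81, -1.65, -1.27 and -1.28 at P200, against -0.30, -0.56, -0.32 and -0.15 at P20. Every P200 array was below every P20 array, and Ccr1 fell by 1.17 (SE 0.14, limma adjusted p = 0.000877). Ccr9 gave -0.34 (SE 0.17, limma adjusted p = 0.277) and did not pass. Of 4 atypical receptors only Ccrl2, which binds chemerin, was in the fit. It stood at -3.31, -3.09, -3.30 and -3.16 at P200, against -2.33, -2.37, -2.34 and -2.21 at P20, with no overlap, and fell by 0.90 (SE 0.07, limma adjusted p = 6.98e-05).

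The 16 genes of chemokine receptor signalling were all in the fit. Of these, 1 was lower, 1 higher and 14 did not pass, with a median change of -0.08. Over all genes tested 5.59% were lower and 5.85% higher, so these counts are near the shares of all genes. Rgs1, which speeds GTP hydrolysis by the G proteins below these receptors, stood at -2.04, -1.65, -1.66 and -2.48 at P200, against -0.53, -0.52, -0.52 and -0.56 at P20. The P20 arrays were nearly level and all above the P200 arrays, and Rgs1 fell by 1.42 (SE 0.17, limma adjusted p = 0.000822). Rac2, a GTPase of blood cells that drives actin assembly and the oxidative burst, stood at 3.10, 3.01, 3.26 and 3.14 at P200, against 2.65, 2.48, 2.81 and 2.74 at P20. All P200 arrays were above all P20 arrays, and Rac2 rose by 0.46 (SE 0.09, limma adjusted p = 0.0111). The call was lost when no background filter was set (limma adjusted p = 0.0993). Gnb1, a G protein beta subunit, did not pass with its brightest probe (0.33, SE 0.10, limma adjusted p = 0.0617), while its other 2 probes were higher at P200 (0.29 and 0.31, limma adjusted p = 0.0125 and 0.0384 over all probes).

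Of 14 transcription factors and regulators known to act on CC chemokine promoters, 11 were in the fit. Of these, 3 fell, none rose and 8 did not pass, with a median change of -0.23. Over all genes tested 5.59% were lower and 5.85% higher. The 3 belong to the NF-kappaB system, from which the list was partly drawn. Nfkbia, which encodes its inhibitor and is itself a target of the pathway, fell by 0.52 (SE 0.08, limma adjusted p = 0.00295). Relb, a subunit of the non-canonical arm, fell by 0.51 (SE 0.07, limma adjusted p = 0.00217). Nfkb1, which encodes a precursor of a subunit, fell by 0.31 (SE 0.07, limma adjusted p = 0.0220). In these 3 genes the groups did not overlap, with P200 below P20, which held for 9.76% of all genes. Sp1, a general activator, did not pass with its brightest probe (0.23, SE 0.07, limma adjusted p = 0.0793), while its second probe was higher at P200 (0.32, limma adjusted p = 0.0104 over all probes). The Nfkbia call was lost with arrays centred on their median (-0.46, limma adjusted p = 0.0575). The Nfkb1 call was lost in that setting too (-0.24, limma adjusted p = 0.354), and its second probe gave -0.24 (limma adjusted p = 0.283 over all probes). Its call was also lost with no background filter (limma adjusted p = 0.203), with the mean of its probes (0.0865) and with the slide row as a term (0.0914). Rela, the main activating subunit, gave -0.14 (SE 0.08, limma adjusted p = 0.339).

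**Figure D5:**
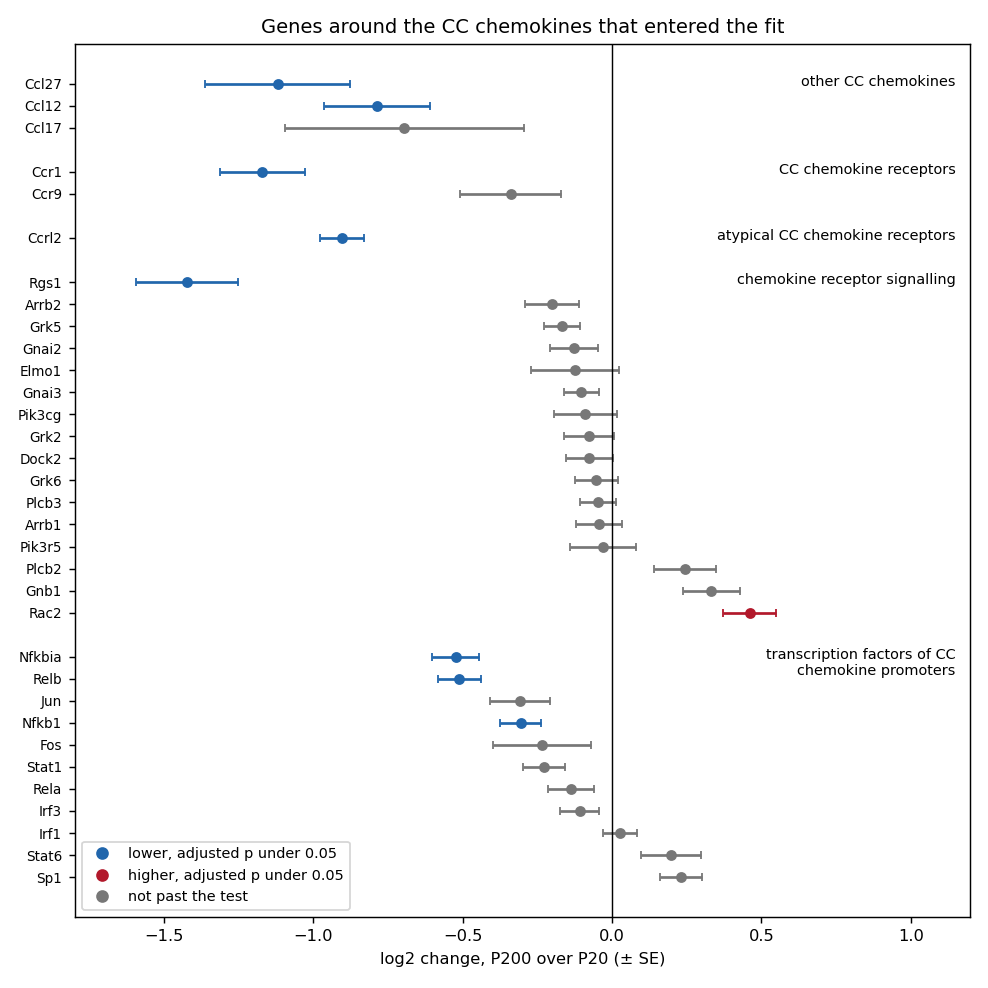
Change of genes around the CC chemokines that were in the fit, as log2 P200 over P20 (± SE) on the horizontal axis, by list; blue points were lower, red higher, and grey did not pass at an adjusted p under 0.05. Rgs1 at -1.42 and Ccr1 at -1.17 lie well below 0, and Rac2 at 0.46 is the red point. The point of Ccl27, above background on no P200 array, is a fitted value. Only a bound of 1.25-fold, for the main processing, is given for it.

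The genes whose 8 centred values lay nearest to those of each member that fell were sought among 14699 genes, by root mean square (RMS) difference in log2 over the 8 arrays. Nearest to Ccl7 were Tgm2, a transglutaminase (RMS 0.17, change -3.74), and Tceal8 (RMS 0.28, change -3.92). Ccl5 had Gbp5, an interferon-induced GTPase (RMS 0.18, change -1.78), and Flvcr2 (RMS 0.22, change -1.87). Ccl2 had Sdc4, a cell-surface proteoglycan (RMS 0.06, change -0.71), and Pcsk1, a prohormone convertase (RMS 0.10, change -0.61). Ccl6 had Tmem86a (RMS 0.04, change -0.31) and Slfn2 (RMS 0.04, change -0.31), and Ccl9 had Siglec10 after an unnamed transcript (RMS 0.08, change -0.81). The nearest to Ccl3 and Ccl4 were transcripts without a gene name in the files. These distances are a description over 8 arrays of 2 groups, in which any gene with a like change lies near.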

How the data were processed

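RNA of NR8383 cells was measured on 8 single-colour arrays, 4 per passage group. Agilent Feature Extraction 11.0.1.1 read the scans, per the submitters' processing notes and the headers, and the deposited scanner files hold spot intensity on a linear scale, background-subtracted by the authors' software and not normalized between arrays. The deposited series matrix holds the spot median intensity. All of its values equal those of a scanner file (100%), but its P200 columns 1, 2, 3 and 4 hold the scanner arrays numbered 2, 3, 4 and 1. Replicate numbers here are the scanner files'.

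Controls (4259 of 62976 spots) and outlier spots were left out. Spots of a probe were averaged on the log2 scale, and 84 of 45598 probes without a usable spot on some array were dropped. The array's 75th percentile was subtracted. Names came from RefSeq (GRCr8) by accession for 21109 probes and by symbol for 7108, and 17381 kept the file's name. Positions are the files' on rn4.

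P200 and P20 were compared with limma 3.58.1 (R 4.3.3, lmFit and eBayes, no covariate, two-sided). The fit was tested on simulated data. Exact permutation tests used SciPy 1.17.1 and alignments Biopython 1.88. Same-numbered samples correlated at 0.025, 0.134, -0.003 and 0.281 in their deviations from the group means, so the numbers were not taken as pairs. Alternatives were the array median, quantile normalization, normexp (offset 50), background filters, the mean of a gene's probes, outlier spots kept, series matrix values, a replicate block, the slide row and leaving out each array. Testing each probe on its own and comparing probes of a gene were added after the probes were seen to differ.

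Named were all 9 members with all probes, of each pathway list the members past the test if 5 or fewer, and the 2 genes nearest to each member that passed. The other genes of the lists, of the chromosome 10 interval and the second probes were named after their values were seen. The members and lists were chosen with earlier results of these data known. A result of the receptor list is not reported here. Precision is limited by the number of arrays.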

Additional observations from a re-analysis of the deposited data

Results flagged for a closer look

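Among 24 groups of 4 arrays, 1 for each member probe and passage, 3 held an array far from the other 3, and chance gives about 1 in 20. Ccl2 on P200 replicate 1 stood at 3.58, with the nearest P200 array at 4.08, and its spots on that array lay between 3.54 and 3.63. The brightest Ccl22 probe on P200 replicate 4 stood at 1.97, with the nearest P200 array at 0.90, while the other Ccl22 probes on that array were at -3.91 and -4.30. Ccl3 on P20 replicate 3 stood at 6.39, with the other P20 arrays at 6.22 to 6.24. The cause was not tested in any of these.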

How the results depend on the processing

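Ccl3, Ccl4, Ccl5, Ccl7 and Ccl9 stayed lower and past the test in all 18 other settings run for each. Their changes ran from -0.75 to -0.64, from -1.15 to -1.04, from -1.82 to -0.85, from -3.99 to -3.41 and from -0.74 to -0.61 in that order. Ccl6 lost its call in 8 of 19 settings (adjusted p up to 0.213) and Ccl2 in 3 of 18. Ccl22 passed in 4 of 20, with the mean of its probes (-1.77), without P200 replicate 4 (-0.93) and with either further probe (-2.13 and -2.52). In the main fit 5.59% of all genes tested were lower and 5.85% higher. The counts of lower genes in the pathway lists include Ccl27 where it passed, and its call is not taken as support. Against 874 lower and 915 higher genes, 8 lower and 1 higher in the pathway lists, and 7 lower members, other settings gave these counts. The array median gave 419 lower genes, 5 lower members and 5 lower in the lists. With no background filter (36121 genes tested) there were 414 lower and 386 higher genes, 5 lower members, and 5 lower and 0 higher in the lists, and the median of all genes moved to 0.10. The slide row gave 581 lower genes, 6 lower members, and 5 lower and 2 higher in the lists. Quantile normalization, normexp and the series matrix each gave 2 higher in the lists, and the mean of probes 3. The replicate block gave 719 lower and 775 higher genes and 6 lower members, with Ccl2 (adjusted p = 0.0564) losing its call. It also took the calls of Ccl27 (adjusted p = 0.0623) and Nfkb1 (adjusted p = 0.0758). The numbers mark no known shared source. Leaving out each array gave 571 to 850 lower and 654 to 857 higher genes, 6 to 8 lower members and 0 higher, and 5 to 9 lower and 1 to 2 higher in the lists. The 571 came without P20 replicate 3. Ccl12, Ccl27 and Nfkb1 lost their calls in 4, 3 and 5 of these 8 fits. Ccl27 turned to 0.057 with no filter, where another probe stands for it, and gave -0.15 after normexp. The causes of the other shifts were not tested. Signal near background limits Ccl5, Ccl24 and Ccl27, and dim signal at P200 limits the identical Ccl22 probes.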
